A study of Mus musculus with 9 samples.

Results

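Crem and 7 genes that act with it in the cyclic AMP (cAMP) response were followed in mouse lung after X-irradiation of the brain. The rows of the deposited protein-coding table whose symbol is Crem, Creb1, Atf1, Crtc2, Crtc3, Sik1, Pde4b or Pde4d were taken, which gave 9 rows of 22564, because Pde4d has a pair of rows. They were chosen by an earlier reading of their levels in irradiated and sham lungs, in the comparisons of both irradiated groups with sham, so their values in those comparisons are a description and carry no test. All 9 rows passed the filter on low counts, with 56 to 2155 fragments per library.

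Every library was made from lung of mice of the GFP-LC3 strain, which carries the autophagy protein LC3 fused to green fluorescent protein. The brain was X-irradiated once with 10 Gy at 2 Gy per min in the first group, and 3 times with 10 Gy at weekly intervals at the same rate in the second. The third group was sham-irradiated, and each group had 3 libraries. The series asks about bystander effects, that is, responses in an organ outside the irradiated field. The labels give no sex, age, time from the last exposure to collection, or promoter of the transgene, and no statement that each library came from a separate animal, so p-values measure the spread between these libraries, which may be technical.

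When a hormone or neurotransmitter raises cAMP in a cell, protein kinase A phosphorylates CREB (the product of Creb1) and its relatives ATF1 and CREM on the cAMP response element of target promoters. CRTC coactivators bind the same factors, and salt-inducible kinases such as SIK1 hold them in the cytoplasm until protein kinase A restrains the kinases. Crem also encodes short repressors known as ICER, and phosphodiesterases of the PDE4 family degrade cAMP. Crem, Sik1, Pde4b and Pde4d can themselves be induced by cAMP, so that they act as feedback genes. In the lung the pathway is known for the relaxation of airway and vascular muscle through receptors that raise cAMP, such as the prostacyclin receptor, and PDE4 inhibitors are used against airway inflammation.

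The cAMP response element is read as the palindrome TGACGTCA, and its half-site as TGACG, which is CGTCA on the other strand and is contained in the palindrome. Both were looked for on both strands in RefSeq promoters of the GRCm38.p6 build, which run from 250 bases before to 50 bases after a start. The table held 8 promoters for 5 of the genes (Atf1, Creb1, Crtc3, Pde4b and Pde4d), and Pde4b had 4 of them. Crem, Crtc2 and Sik1 are named only. The palindrome stood in 0 of the 8 promoters, and in 588 of the 32851 promoters of the table (1.79%). The half-site stood in 2 of the 8 and in 6837 of all promoters (20.8%), and a match describes letters only. The 2 promoters with a half-site are shown because they belong to a gene whose level was lower after irradiation (Pde4b, chr4:102421305-102421604, plus strand, half-site 34 bases before the start) and to one whose level was close to sham (Atf1, chr15:100227609-100227908, plus strand, 90 bases before the start). The half-site is in capitals.
Pde4b: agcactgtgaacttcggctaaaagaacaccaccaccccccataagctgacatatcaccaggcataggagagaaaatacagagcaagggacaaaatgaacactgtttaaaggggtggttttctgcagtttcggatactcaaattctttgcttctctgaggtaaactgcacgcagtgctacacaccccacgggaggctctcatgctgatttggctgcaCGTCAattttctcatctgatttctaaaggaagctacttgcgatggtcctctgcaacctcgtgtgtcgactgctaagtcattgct
Atf1: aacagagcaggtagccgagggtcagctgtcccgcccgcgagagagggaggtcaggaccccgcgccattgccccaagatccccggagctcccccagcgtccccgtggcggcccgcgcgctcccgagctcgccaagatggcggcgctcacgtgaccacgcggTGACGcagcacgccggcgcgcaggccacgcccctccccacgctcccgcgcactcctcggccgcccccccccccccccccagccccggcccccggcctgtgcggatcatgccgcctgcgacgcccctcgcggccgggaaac

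The libraries held 4987828 to 7381007 fragments, and 14074 genes were tested. Library 1 of the single exposure stood apart. It held 7.16% mitochondrial fragments, against 5.82% in library 1 of the 3 weekly exposures and 1.73 to 3.10% elsewhere, and a summed level of heart muscle markers of 12254 CPM, against 79.7 to 679 CPM in the other 8 libraries. Sham library 1 lay between the other sham libraries in 71.8% of 12674 genes, while any other library lay between its group mates in 12.6 to 43.8%. The labels do not say whether it was pooled or derived from them. If it was, the sham SDs, the SEs and the p-values given below are too small. By edgeR's test, 12.0% and 7.90% of genes had an unadjusted p under 0.05 after the single and the 3 exposures. In the fit without sham library 1 these shares were 5.34% and 3.44%. They were 8.81% and 6.20% without sham library 2, and 6.49% and 4.69% without sham library 3. Each of these fits also had 1 library fewer. Library 3 of the 3 weekly exposures had 0 fragments on Y-linked genes, and the others had 1443 to 2070. The lung label fitted its markers, since those of alveolar type 2 cells summed to 4540 to 16002 CPM and those of club and ciliated cells to 25329 to 45028 CPM over all libraries.

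Of the 3 factor genes, Crem was lower in both irradiated groups, and Creb1 and Atf1 stood near their sham levels. Crem, on mouse chromosome 18 from 3266048 to 3366863 on the minus strand of mm10 as deposited, had normalized counts of 10.6, 13.4 and 11.8 CPM after a single exposure, 13.4, 13.9 and 13.3 CPM after 3 weekly exposures and 28.8, 31.1 and 28.1 CPM in sham lungs. All 6 irradiated libraries lay below all 3 sham libraries, and the 3 libraries of each group lay close together. The means were 11.95 ± 1.41 CPM after a single exposure, 13.5 ± 0.325 CPM after 3 exposures and 29.4 ± 1.55 CPM in sham lungs (SD, n = 3 each). The log2 change against sham was -1.30 ± 0.17 (SE) after a single exposure, 2.45-fold lower, and -1.12 ± 0.16 after 3 exposures, 2.17-fold lower. These values rest on 70, 78 and 74 fragments after a single exposure, 77, 102 and 81 after 3 exposures and 180, 165 and 143 in sham lungs. The highest upper bound of the exact 95% Poisson interval among irradiated libraries was 16.9 CPM and the lowest lower bound among sham libraries was 23.7 CPM, which covers counting error only.

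The 39 transcripts of Crem in the GENCODE M21 annotation, 32 of them coding, were counted as 1 gene, so activator and ICER forms could not be told apart. The deposited Crem locus runs 29115 bases past the higher coordinate of the gene in GENCODE M21, which is upstream of this minus-strand gene. It ends at the same base as the antisense gene Gm6225 (chromosome 18, 3336680 to 3366863, plus strand), whose exons overlap those of Crem. The libraries were stranded, but whether counting used the strand is not given in the sources used here, so reads of Crem and Gm6225 may be mixed. In lung tissue, fewer cells of a type that expresses a gene and less RNA per cell cannot be told apart.

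Creb1 encodes CREB, the main cAMP-responsive activator (chromosome 1, 64532804 to 64604547, plus strand). It had 108, 198 and 163 CPM after a single exposure, 144, 158 and 143 CPM after 3 exposures and 161, 168 and 161 CPM in sham lungs. The single-exposure libraries spread around the sham values, while those of the 3 exposures all lay just below them. The log2 change was -0.06 ± 0.20 and -0.14 ± 0.20 for the single and the 3 exposures against sham. Atf1, whose product pairs with CREB (chromosome 15, 100227819 to 100261244, plus strand), had 36.9, 41.7 and 33.0 CPM after a single exposure, 38.2, 37.2 and 34.2 CPM after 3 exposures and 37.2, 34.1 and 38.8 CPM in sham lungs. The 3 groups overlapped, with log2 changes of 0.02 ± 0.15 and -0.00 ± 0.15.

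**Figure D1:**
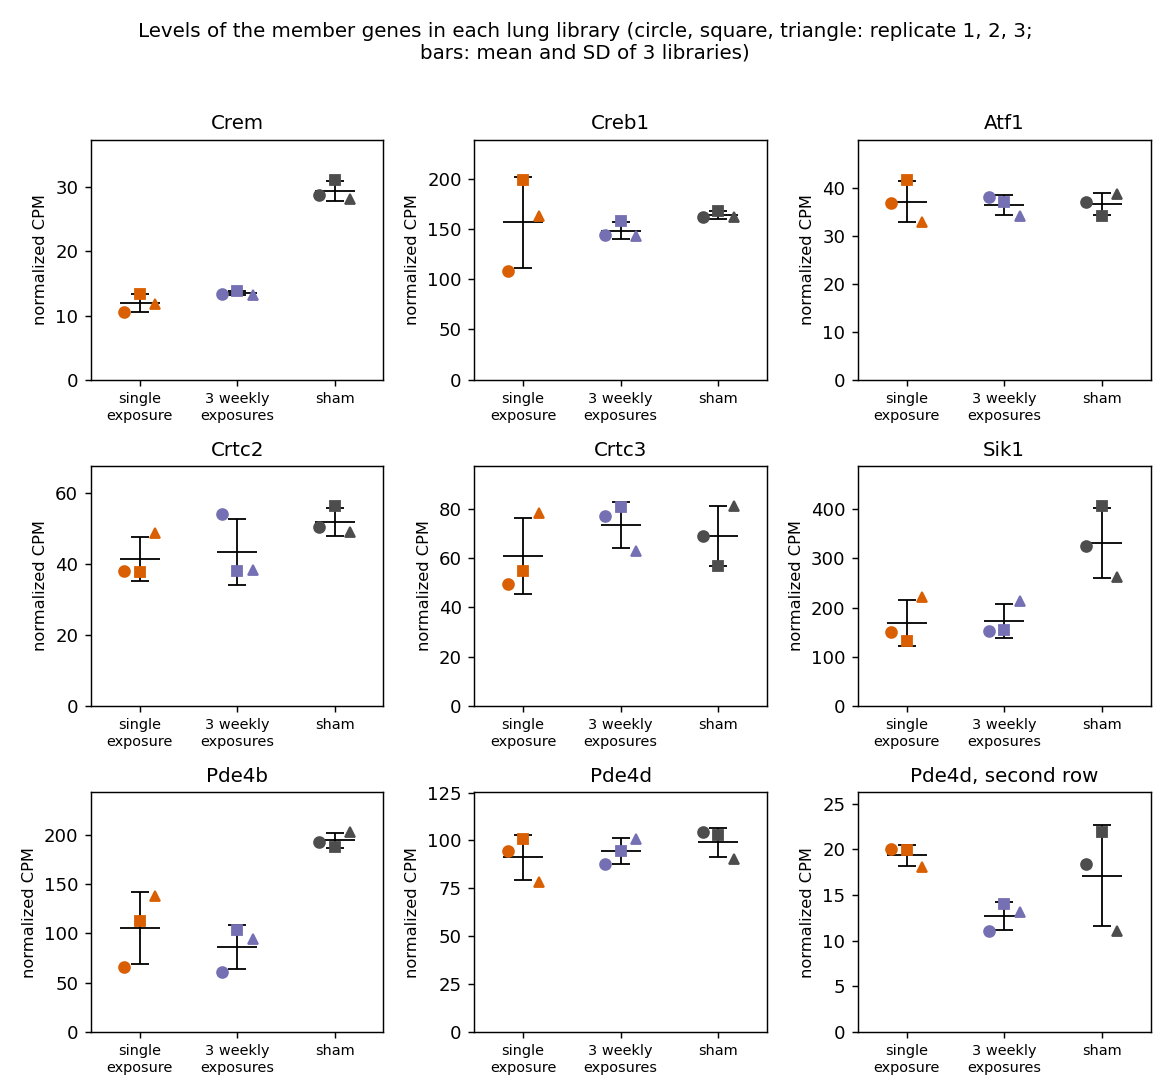
TMM-normalized CPM of each row (vertical axes, starting at 0) in the 3 libraries of the single exposure, the 3 weekly exposures and sham, with the mean and SD. Crem and Pde4b lie at 10.6 to 13.9 and 61.1 to 138 CPM in irradiated lungs against 28.1 to 31.1 and 188 to 203 CPM in sham lungs, while the groups of Atf1, Crtc3 and the main Pde4d row overlap.

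The coactivator genes differed little from sham. Crtc2 (chromosome 3, 90254163 to 90264125, plus strand), a coactivator known for the fasting response of liver, had 37.9, 37.5 and 48.5 CPM after a single exposure, 54.1, 37.9 and 38.2 CPM after 3 exposures and 50.3, 56.2 and 48.8 CPM in sham lungs. The single-exposure libraries lay below all sham libraries, by a margin of under 1 CPM for the nearest pair, and those of the 3 exposures overlapped with them. The log2 changes were -0.32 ± 0.19 and -0.26 ± 0.19. Crtc3 (chromosome 7, 80586627 to 80688877, minus strand), its relative, had 49.6, 54.6 and 78.5 CPM after a single exposure, 77.0, 80.7 and 63.1 CPM after 3 exposures and 68.9, 56.7 and 81.1 CPM in sham lungs. All 3 groups overlapped, and the log2 changes of -0.18 ± 0.21 and 0.10 ± 0.21 took opposite signs.

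Sik1, the kinase gene that restrains CRTC coactivators, was lower in every irradiated library (chromosome 17, 31844248 to 31855792, minus strand). Its levels were 151, 132 and 222 CPM after a single exposure, 152, 154 and 212 CPM after 3 exposures and 325, 406 and 263 CPM in sham lungs. The groups did not overlap, although the sham libraries differed among themselves by more than the gap between the groups. The log2 change was -0.98 ± 0.25 after a single exposure, 1.97-fold lower, and -0.94 ± 0.25 after 3 exposures, 1.92-fold lower. The means were 168 ± 47.3, 173 ± 34.3 and 331 ± 71.8 CPM in the single, 3-exposure and sham groups (SD, n = 3 each).

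Of the phosphodiesterase genes, Pde4b was lower after irradiation and the main row of Pde4d stood near sham. Pde4b, the PDE4 gene best known from immune cells (chromosome 4, 102087543 to 102607259, plus strand), had 65.7, 113 and 138 CPM after a single exposure, 61.1, 104 and 94.7 CPM after 3 exposures and 193, 188 and 203 CPM in sham lungs. The sham libraries lay close together and above all irradiated libraries, which were more spread. The log2 change was -0.88 ± 0.27, 1.85-fold lower, after a single exposure and -1.17 ± 0.28, 2.25-fold lower, after 3 exposures. Library 1 had the lowest Pde4b level in each irradiated group, and without library 1 of the single exposure the single-exposure value was -0.63.

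Pde4d, the PDE4 gene with many long and short forms (chromosome 13, 108449948 to 109953461, plus strand), had 94.4, 101 and 78.2 CPM after a single exposure, 87.4, 94.4 and 101 CPM after 3 exposures and 104, 103 and 90.3 CPM in sham lungs. The groups overlapped, with log2 changes of -0.12 ± 0.14 and -0.07 ± 0.13. A second row with the symbol Pde4d (ENSMUSG00000074661, chromosome 13, 109954109 to 109955963, plus strand) starts 647 bases past the end of the first, is 1855 bases long and has no entry under its ID in GENCODE M21. It had 20.03, 19.97 and 18.03 CPM after a single exposure, 10.99, 14.0 and 13.1 CPM after 3 exposures and 18.4, 21.9 and 11.02 CPM in sham lungs. The sham libraries spread over the range of both irradiated groups, and the log2 changes against sham were 0.18 ± 0.25 and -0.43 ± 0.25.

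**Figure D2:**
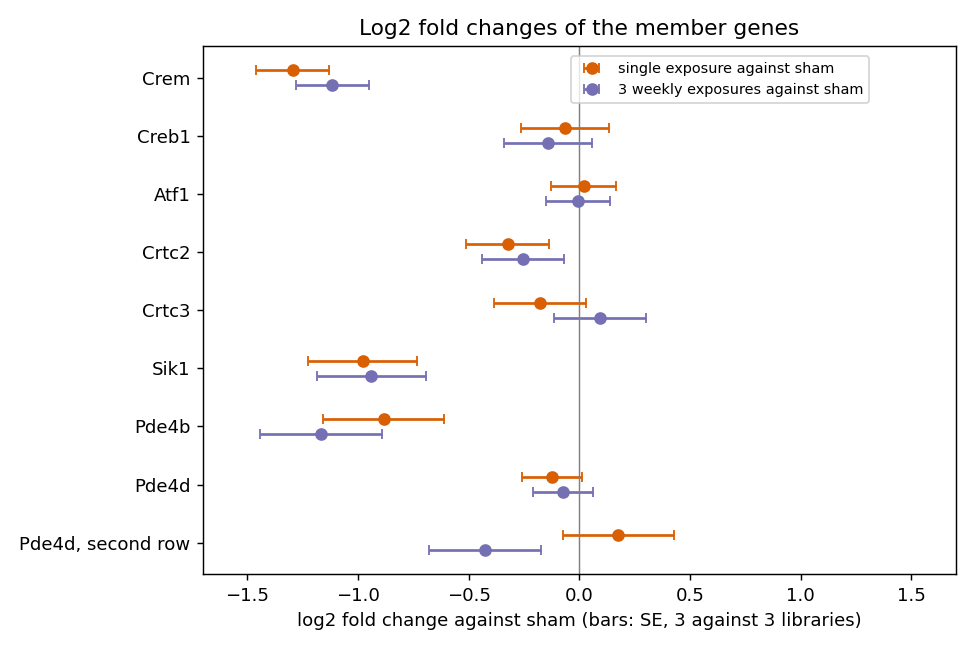
Log2 fold change of each row against sham (horizontal axis) after a single exposure and after 3 weekly exposures, with SE bars from the fit over all 9 libraries. Crem, Sik1 and Pde4b lie between -1.30 and -0.88 in both comparisons, and the other rows lie between -0.43 and 0.18.

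After a single exposure, 4 of the 9 rows (Crem, Crtc2, Sik1 and Pde4b) had all irradiated libraries below all sham libraries, beside 10.7% of all genes tested. After 3 exposures these were again 4 of the 9 rows (Crem, Creb1, Sik1 and Pde4b), beside 11.1% of all genes. The 2 comparisons share the 3 sham libraries. Nothing is read from these counts, since the same comparisons chose the genes. Over all genes edgeR's quasi-likelihood test called 0 at an adjusted p under 0.05 (0.00%) in either comparison with sham, and 1693 genes (12.0%) and 1112 genes (7.90%) had an unadjusted p under 0.05 after the single and the 3 exposures. DESeq2 called 198 and 89, and limma on log2(FPKM + 1) called 4 and 0.

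The values of Crem, Sik1 and Pde4b were recomputed without the libraries that stood apart. Without sham library 1 the log2 changes after a single and after 3 exposures were -1.31 and -1.13 for Crem, -0.99 and -0.95 for Sik1 and -0.89 and -1.17 for Pde4b. Without both sham library 1 and library 1 of the single exposure they were -1.23 and -1.13 for Crem, -0.92 and -0.95 for Sik1 and -0.64 and -1.17 for Pde4b. For these 3 genes all irradiated libraries lay below all sham libraries, so leaving libraries out could change the size of a value but hardly its sign. The signs are therefore no check on the genes. The widest shift was in Pde4b after a single exposure.

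Some cell type markers moved with these genes and others did not. The platelet and megakaryocyte markers, all 10 of which were detected, summed to 50.4, 64.4 and 80.0 CPM after a single exposure, 59.5, 78.3 and 48.5 CPM after 3 exposures and 116, 92.9 and 139 CPM in sham lungs. Of the 9 tested, 9 were lower in each comparison, with median log2 changes of -0.89 and -0.83. The neutrophil markers, all 12 detected, summed to 118, 160 and 673 CPM after a single exposure, 177, 194 and 158 CPM after 3 exposures and 443, 301 and 596 CPM in sham lungs. Library 3 of the single exposure, the highest of its group in neutrophil markers, was also the highest in Sik1 and Pde4b, but library 2 was the highest in Crem. After 3 exposures library 2, the highest in neutrophil markers, was the highest in Crem and Pde4b. Sik1 was highest there in library 3, which was the lowest in neutrophil markers. Of the 11 tested, 6 were lower after a single exposure and 11 after 3 exposures, with medians of -0.38 and -2.16. Other blood cell lists had medians above 0 after a single exposure, at 1.17 for NK cells, 0.63 for monocytes, 0.58 for B cells and 0.27 for T cells. In the same order the medians were 0.17, -0.24, 0.08 and 0.01 after 3 exposures. Single libraries weighed on the single-exposure values. NK cell markers summed to 25.3, 140 and 41.3 CPM, against 32.6 to 39.9 CPM in sham lungs. B cell markers summed to 304, 134 and 110 CPM against 112 to 118 CPM, and T cell markers to 129, 226 and 132 CPM against 129 to 144 CPM. Monocyte markers summed to 499, 1149 and 1574 CPM against 1176 to 1425 CPM. Alveolar macrophage markers had medians of 0.62 and 0.81 and adipocyte markers 2.26 and 2.40. Adipocyte markers summed to 1145, 40.8 and 94.6 CPM after a single exposure. After 3 exposures their sums were 53.2, 56.0 and 1209 CPM, against 95.05 to 149 CPM in sham lungs. The adipocyte sum was above sham only in library 1 of the single exposure and library 3 of the 3 exposures. In the other irradiated libraries it was below all sham libraries. Endothelial markers summed to 740, 2797 and 2994 CPM after a single exposure, 2104, 3510 and 2442 CPM after 3 exposures and 2460, 2540 and 2461 CPM in sham lungs, and overlapped. The part of these cell types in the levels of Crem, Sik1 and Pde4b was not tested.

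Levels per length, as FPKM, gave the order of the genes within a group. In sham lungs Sik1 stood highest at 58.9 ± 12.2 FPKM, followed by Pde4b at 42.2 ± 0.425, Pde4d at 40.4 ± 3.15, Crtc2 at 24.2 ± 2.87, Atf1 at 23.5 ± 5.71, Crem at 21.9 ± 1.30, Creb1 at 15.4 ± 0.230, Crtc3 at 15.1 ± 1.42 and the second Pde4d row at 7.84 ± 2.48 FPKM (SD, n = 3). Pde4b and Pde4d did not differ beyond their spread, nor did Crtc2, Atf1 and Crem, nor Creb1 and Crtc3. Crem came last or next to last after irradiation, at 8.71 ± 2.29 FPKM after a single exposure and 8.78 ± 1.39 FPKM after 3 exposures. Sik1 stood at 31.9 ± 8.96 and 30.8 ± 8.22 FPKM and Pde4b at 25.9 ± 9.72 and 19.0 ± 5.31 FPKM, while Pde4d, at 37.1 ± 8.76 and 41.7 ± 5.42 FPKM, had the highest mean of the irradiated groups.

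Set against its partners within the same library, Crem stood below Creb1 in irradiated lungs. The ratio of Crem to Creb1 FPKM was 0.610, 0.447 and 0.655 after a single exposure, 0.605, 0.611 and 0.684 after 3 exposures and 1.39, 1.36 and 1.52 in sham lungs. It lay under 1 in all 6 irradiated libraries and over 1 in all 3 sham libraries. The ratio of Crem to Atf1 was 0.256 to 0.397 after a single exposure, 0.338 to 0.394 after 3 exposures and 0.782 to 1.12 in sham lungs. The ratio of Pde4b to Pde4d was 0.443, 0.606 and 1.14 after a single exposure, 0.351, 0.579 and 0.432 after 3 exposures and 0.998, 0.997 and 1.16 in sham lungs. Here the groups overlapped after a single exposure through library 3, and did not after 3 exposures.

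The FPKM of several of these genes also moved with the transcript length that the authors' program assigned. The ratio of deposited count to FPKM, which follows that length, had a coefficient of variation over the 9 libraries of 0.309% for Creb1 and 0.632% for Sik1, against 5.54% for Pde4b, 8.97% for Pde4d, 12.5% for Crem and 15.4 to 15.6% for Crtc2, Atf1 and Crtc3. Fold changes between groups are therefore given from counts. The FPKM order and the FPKM ratios between genes carry this variation in length as well.

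**Figure D3:**
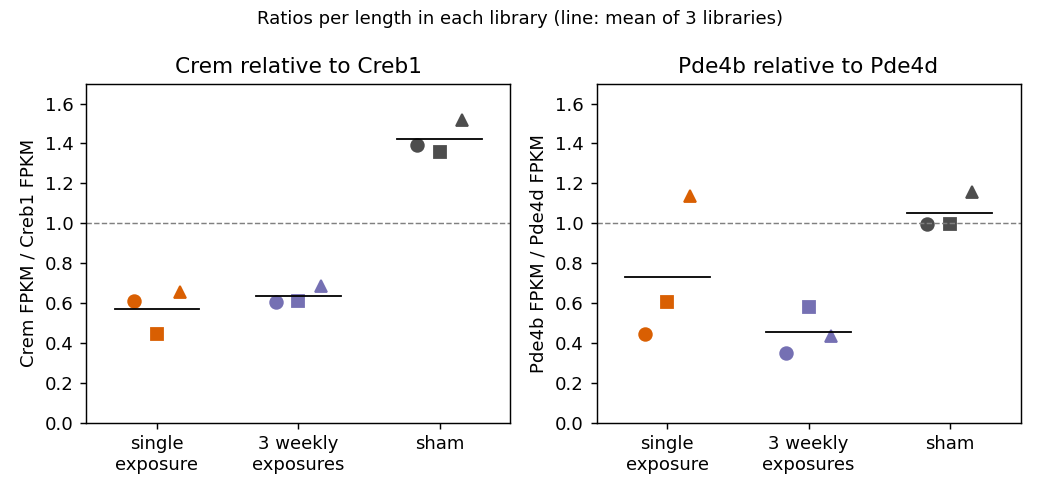
Ratio of Crem to Creb1 FPKM (left) and of Pde4b to Pde4d FPKM (right) in each library of the single exposure, the 3 weekly exposures and sham; symbols mark replicates, lines group means and the dashed line a ratio of 1. Crem to Creb1 lies at 0.447 to 0.684 in irradiated libraries and 1.36 to 1.52 in sham libraries, while Pde4b to Pde4d reaches 1.14 in 1 single-exposure library.

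The comparison of 3 weekly exposures with a single exposure was not itself used to choose the genes. It shares the irradiated libraries with the comparisons that were, so its p-values and intervals are not independent of that choice. Choosing genes that are lower in both irradiated groups favours small differences here. Of the 9 rows, 0 were called by edgeR's quasi-likelihood test at an adjusted p under 0.05, as were 0 of the 14074 genes (0.00%), with adjusted p from 0.753 to 0.980. At an unadjusted p under 0.05 stood 1 of the 9 rows and 920 genes (6.54%). DESeq2 called 5 genes and limma on log2(FPKM + 1) 3. Crem differed by a log2 change of 0.18 ± 0.17 (95% interval -0.19 to 0.55, adjusted p = 0.849), Sik1 by 0.04 ± 0.24 (-0.51 to 0.59, adjusted p = 0.980) and Pde4b by -0.28 ± 0.27 (-0.90 to 0.33, adjusted p = 0.851). These intervals leave room for differences of the size given by their bounds. The second Pde4d row had the smallest p among the 9, with a log2 change of -0.60 ± 0.25 (-1.17 to -0.03, unadjusted p = 0.0402, adjusted p = 0.753), and its libraries of 3 exposures all lay below those of the single exposure, beside 3.86% of all genes. The other 5 rows lay between -0.08 and 0.27.

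Genes whose levels over the 9 libraries were most like those of Crem were looked for by Pearson's correlation of log2 CPM among all genes tested. The 8 most alike were the ribosomal protein genes Rpl9 (0.966), Rpl22 (0.962), Rps20 (0.961) and Rpl36a (0.946), with Chd1 (0.962), a chromatin remodeller, Rcan1 (0.954), a calcineurin regulator, Akr1c19 (0.948), an aldo-keto reductase gene, and Akirin1 (0.947). Over all genes, 10.7% and 11.1% had all irradiated libraries below all sham libraries after the single and the 3 exposures. Each of the 8 did so in both comparisons, which a choice by likeness to Crem favours. Rpl9, for instance, ranged over 72.9 to 87.8 CPM after a single exposure, 85.7 to 99.9 CPM after 3 exposures and 127 to 147 CPM in sham lungs. Sik1 ranked 137 at 0.85 and Pde4b 168 at 0.83, while Atf1 was at 0.00. The libraries share the sham and irradiated levels of Crem and their depth, so these values describe mainly the step between the sham and irradiated groups, and ribosomal protein genes have near-identical copies that make their counts uncertain.

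The other genes of the pathway were read from 6 lists by role, of which 104 of 113 genes were tested. In the comparisons with sham, edgeR called 0 of the 104 at an adjusted p under 0.05 (0.00% of all genes). At an unadjusted p under 0.05, 9 were higher and 11 lower after a single exposure, and 4 were higher and 15 lower after 3 exposures. Over all genes tested the shares were 6.60% higher and 5.43% lower after a single exposure, and 4.26% higher and 3.64% lower after 3 exposures. DESeq2 called 5 of the 104 after a single exposure (Klf4, Nr4a2, Nr4a3, Areg and Atf4) and 6 after 3 exposures (Klf4, Nr4a1, Nr4a2, Nr4a3, Ptgs2 and Atf4), all lower than sham. Of the 13976 genes to which it gave an unadjusted p-value, it called 1.42% and 0.637%.

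Receptors that raise cAMP lay on both sides of sham, with 8 of 15 tested higher after a single exposure and 10 of 15 after 3 exposures, and median log2 changes of 0.18 and 0.21, beside 0.03 and 0.02 over all genes. Ptgir, the prostacyclin receptor, had 9.58 to 13.3 CPM after a single exposure and 9.27 to 16.2 CPM after 3 exposures, both above the 7.69 to 8.29 CPM of sham lungs. Its log2 changes were 0.49 ± 0.27 (edgeR adjusted p = 0.496) and 0.78 ± 0.27 (adjusted p = 0.521). Adrb1 and Adora2b, further receptors coupled to cyclase, stood at 0.71 and 0.47 after 3 exposures, and the prostaglandin E receptor gene Ptger2 at -0.65 after a single exposure, or -0.38 without library 1 of that group. Without library 3 of the single exposure the median of the receptors after a single exposure was -0.06.

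Adenylyl cyclases, which make cAMP, and G proteins had medians of 0.00 and 0.11 over 14 tested genes, with 7 and 8 higher. The list holds both stimulatory G proteins and inhibitory ones such as Gnai1. Gnas, the stimulatory G protein, was at 0.07 ± 0.29 and 0.24 ± 0.29. The cyclase gene Adcy2 was at 0.42 in both comparisons (edgeR adjusted p = 0.402 and 0.614). Gnai1 was at 0.26 and 0.22, Adcy9 at -0.36 (-0.63 to -0.21 with 1 library left out) and -0.02, and Adcy7 at -0.09 and 0.29.

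Protein kinase A genes and their regulators had medians of 0.04 and 0.01 over 14 tested genes, with 8 higher in each comparison. Prkaca, a catalytic subunit, had 106, 61.5 and 90.8 CPM after a single exposure, 73.1, 77.4 and 103 CPM after 3 exposures and 56.2, 61.1 and 58.2 CPM in sham lungs, with log2 changes of 0.56 ± 0.21 (edgeR adjusted p = 0.370) and 0.53 ± 0.21 (adjusted p = 0.598). All its irradiated libraries lay above the sham libraries, but library 2 of the single exposure, at 61.5 CPM, barely passed sham library 2 at 61.1 CPM. Akap12, a scaffold that binds the kinase, was the lowest of the list at -1.09 ± 0.36 (adjusted p = 0.329) and -0.87 ± 0.36 (adjusted p = 0.601), the second at -0.57 without sham library 2. Pkib, a kinase inhibitor gene, was at 0.96 and 0.92, with a single-exposure value of 0.25 without library 2 of that group. Prkacb, a second catalytic subunit, was at 0.36 and 0.02, and the regulatory subunit gene Prkar1a at -0.08 and 0.08.

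The other phosphodiesterases had medians of -0.15 and 0.01 over 13 tested genes, with 7 and 5 lower. Without library 1 of the single exposure, 12 of 13 were lower after a single exposure, with a median of -0.08. After 3 exposures, 10 of 14 were lower without sham library 2 and 8 of 14 without library 3 of the 3 exposures, where 1 more gene passed the filter. Pde8a, a cAMP-specific enzyme, was at -0.30 ± 0.17 and -0.46 ± 0.17 (edgeR adjusted p = 0.494 and 0.549), with 35.2 to 41.0, 26.9 to 39.0 and 46.4 to 47.6 CPM in the single, 3-exposure and sham groups. Pde4a, the PDE4 relative, was at 0.49 ± 0.33 and -0.20 ± 0.34, and its single-exposure value was -0.03 without library 1. Pde1c had the largest single-exposure value of the list at 3.31 ± 1.22, which came from 42.2 CPM in library 1 against 1.89 and 0.958 CPM in the other libraries of that group and 1.38 to 1.60 CPM in sham lungs. Without library 1, the library with high heart muscle markers, Pde1c was at -0.08. Pde7b was at -0.34 and -0.33, and with 1 library left out it ranged from -0.50 to -0.11 and from -0.44 to -0.19. Pde1a was at 1.09 and 0.55, but at 0.12 without library 1 of the single exposure and at -0.05 without library 3 of the 3 exposures.

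Among other CREB-family factors, coactivators and salt-inducible kinases, with medians of 0.11 and 0.03 over 18 tested genes, 8 were lower in each comparison. Atf4, a factor of the stress response, had 94.97, 86.4 and 110 CPM after a single exposure, 94.2, 97.4 and 95.04 CPM after 3 exposures and 149, 163 and 124 CPM in sham lungs. All irradiated libraries lay below the sham libraries, and the log2 changes were -0.58 ± 0.14 (edgeR adjusted p = 0.240) and -0.60 ± 0.14 (adjusted p = 0.381). The coactivator genes Crtc1, Crebbp and Ep300 and the kinase genes Sik2 and Sik3 lay between -0.16 and 0.28. Atf2 and Camk4, a CREB kinase gene, were at 0.48 and 0.70 after a single exposure and at 0.14 and -0.02 after 3 exposures, and Creb3l1 and Creb5 were at 0.84 and -0.56 after 3 exposures. With 1 library left out, Creb3l1 ranged from 0.53 to 1.09 and Creb5 from -0.77 to -0.30. Without library 1 of the 3 exposures 5 of the 18 were lower after 3 exposures, and without library 1 of the single exposure the list had a median of -0.06 after a single exposure.

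Known CREB target genes stood lower more often than not, with 21 of 30 tested below sham after a single exposure and 22 of 30 after 3 exposures, where 46.2% and 47.6% of all genes were lower. Their median log2 changes were -0.48 and -0.52. At an unadjusted p under 0.05, 9 were lower and 1 higher after a single exposure, and 12 were lower and 0 higher after 3 exposures. The targets had non-overlapping lower groups in 10 of 30 genes after a single exposure and in 12 of 30 after 3 exposures. Over all genes tested these shares were 10.7% and 11.1%. The list was chosen with earlier results of these data known, so its counts and medians are a description and carry no test. The 9 and 12 lower genes were 5 and 7 without sham library 1, 4 and 7 without sham library 2, and 7 and 10 without sham library 3. In the same fits and order, 5.34% and 3.44%, 8.81% and 6.20%, and 6.49% and 4.69% of all genes had an unadjusted p under 0.05. These shares count both directions, and lower genes alone are not given for these fits. The medians of the targets lay between -0.57 and -0.43.

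Nr4a3, an immediate early nuclear receptor, had the smallest p of the targets in both comparisons. It had 36.6, 15.7 and 14.7 CPM after a single exposure, 18.7, 12.5 and 15.4 CPM after 3 exposures and 76.4, 106 and 52.1 CPM in sham lungs. Its log2 changes were -1.81 ± 0.39 (edgeR adjusted p = 0.215) and -2.33 ± 0.40 (adjusted p = 0.301), and the groups did not overlap. Its relatives Nr4a1 and Nr4a2 were at -1.47 ± 0.56 and -1.64 ± 0.40 after a single exposure and at -2.39 ± 0.58 and -1.77 ± 0.40 after 3 exposures. Nr4a1 reached 83.9 CPM in 1 single-exposure library, above the lowest sham library at 61.0 CPM.

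Klf4, a transcription factor of epithelium and endothelium, had 76.9, 46.0 and 149 CPM after a single exposure, 85.2, 77.4 and 104 CPM after 3 exposures and 250, 265 and 244 CPM in sham lungs. Its sham libraries lay close together and above all others, with log2 changes of -1.48 ± 0.35 (edgeR adjusted p = 0.232) and -1.51 ± 0.35 (adjusted p = 0.381). Areg, a ligand of the epidermal growth factor receptor, was at -1.60 ± 0.37 and -1.40 ± 0.37, with at most 6.97 CPM in any library. Ptgs2, the inducible cyclooxygenase, was at -0.61 ± 0.24 and -1.29 ± 0.24. Per1, the clock gene, was at -1.25 ± 0.63 (adjusted p = 0.466) and -1.04 ± 0.63 (adjusted p = 0.751), and its irradiated libraries spread over 33.1 to 245 CPM below sham libraries at 250.1 to 306 CPM. With 1 library left out its log2 changes ranged from -2.02 to -0.81 and from -1.83 to -0.72.

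Not all targets shared that side. Ccna2, a cyclin gene of proliferating cells, was at 1.08 ± 0.36 after a single exposure (edgeR adjusted p = 0.332) and 0.62 ± 0.36 after 3 exposures. Rgs2, an inhibitor of G protein signalling, stood at 0.38 and -0.28, and between the irradiated groups it was lower after 3 exposures at -0.66 ± 0.22 (adjusted p = 0.753). In that comparison 1 target was higher and 3 were lower at an unadjusted p under 0.05, with shares of 2.79% and 3.74% over all genes. Of the 30 targets, 19 were lower there with a median of -0.12, but without library 3 of the single exposure 12 were lower, with 3 higher and 2 lower at an unadjusted p under 0.05 and a median of 0.17. Ccna2 and Rgs2 were chosen after their values were seen.

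Of the 13 genes fixed as signs of RNA handling, which include the targets Fos and Egr1, 9 were lower after a single exposure and 10 after 3 exposures, with medians of -0.40 and -0.23. Their summed level, led by mt-Co1, was 11769 to 43841 CPM after a single exposure, 13372 to 36009 CPM after 3 exposures and 15992 to 23461 CPM in sham lungs. Their part in the levels of the target genes was not tested.

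**Figure D4:**
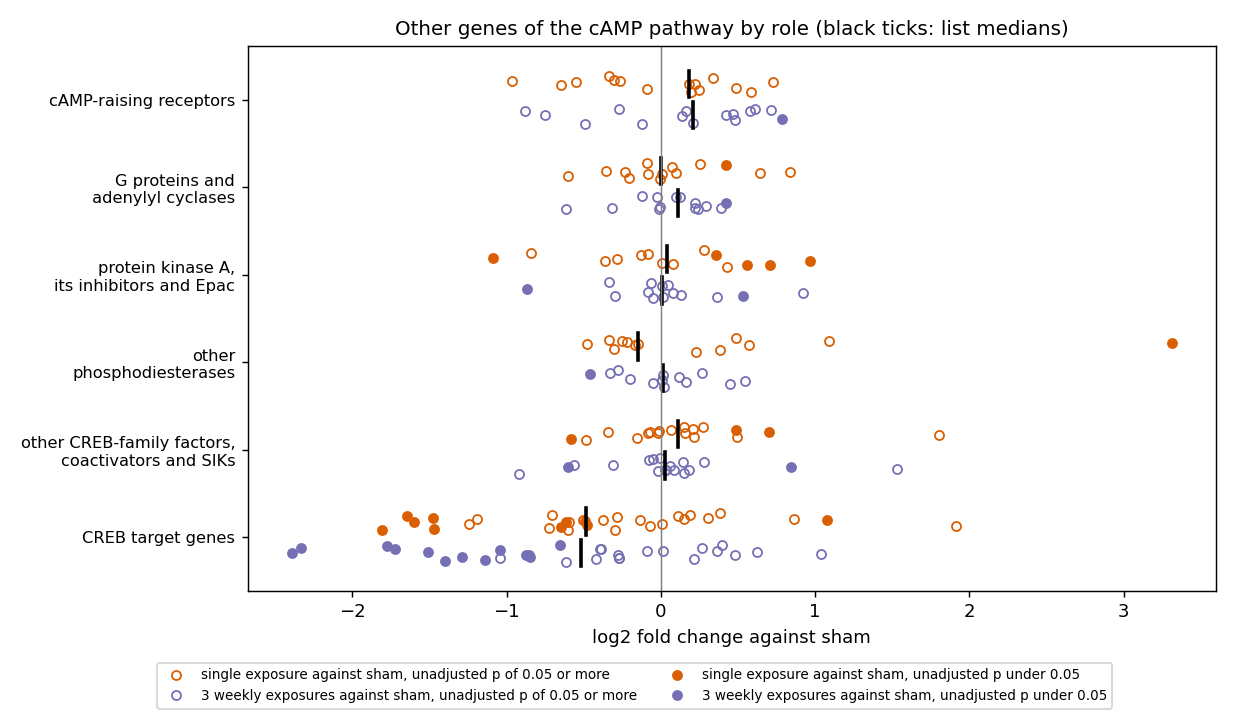
Log2 fold change against sham (horizontal axis) of the 104 tested pathway genes in 6 lists by role; each point is a gene after a single exposure or after 3 weekly exposures, filled where the unadjusted p was under 0.05, and black ticks are list medians. The CREB targets have medians of -0.48 and -0.52, and the other 5 lists have medians between -0.15 and 0.21.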

How the data were processed

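RNA sequencing of 9 lung libraries was read from 1 deposited table of protein-coding genes, with FPKM and estimated counts per library. Per the labels' protocols, ribosomal RNA was depleted from 1 µg of Trizol-extracted RNA and stranded libraries were sequenced for 150 cycles. Per the submitters' processing notes, cutadapt 1.9.3 and HISAT2 2.0.4 were used with mm10. Which program estimated expression is not given in the sources used here. FPKM values were made by the authors and deposited scaled by gene length and library size, per the file headers.

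The authors' estimated counts were deposited as multiples of 1 step per library (0.854 to 1.19). They were divided by that step, after which 92.0 to 93.4% of values lay within 0.1 of a whole number, and rounded. This gave 4987828 to 7381007 fragments per library, and the Poisson intervals of single libraries cover counting error only. Counts were filtered with filterByExpr, normalized with TMM and fitted over all 9 libraries with edgeR 4.0.16 in R 4.3.3 (glmQLFit and glmQLFTest, 6 residual degrees of freedom, common biological coefficient of variation 0.316). P-values were adjusted by Benjamini-Hochberg over 14074 genes, and a gene was called at an adjusted p under 0.05. The SE is the absolute log2 change over the square root of F.

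The members, lists and tests were chosen with earlier results of these data known. The text names the 8 member genes, the 3 tested genes with the smallest unadjusted p per role list and comparison with sham, 12 fixed pathway genes (1 of which is not reported here) and the 8 genes most correlated with Crem (log2 CPM, prior count 2). Genes outside the rule are named as such. GENCODE M21 gave transcripts and neighbours. The pipeline was tested on simulated data.

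Alternatives were DESeq2 1.42.0, limma 3.58.1 on log2(FPKM + 1) and log2(FPKM + 0.1) with a mean FPKM of at least 0.5 or no filter, no filter on counts, counts without rescaling, the compared libraries alone, a replicate block and each library left out. Leaving out sham library 1 and library 1 of the single exposure together was added after seeing the data. Same-numbered libraries of different groups had correlations of deviations from -0.0792 to 0.304, so the numbers were not taken as pairs.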

Additional observations from a re-analysis of the deposited data

How the results depend on the processing

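Crem rests on 70 to 180 and the second Pde4d row on 56 to 132 fragments per library. The fit over all 9 libraries had 6 residual degrees of freedom, which limits its tests. Fits on fewer libraries or with a replicate block had fewer still. All 18 alternatives gave a value for each of the 9 rows. In the comparisons with sham, 6 of 324 recomputed values moved by more than the spread between replicates. Of these, Crem after 3 exposures was at -1.23 with limma on log2(FPKM + 1), with or without the filter, and at -1.32 with a pseudocount of 0.1, and Atf1 after a single exposure was at 0.29 to 0.30 in the same fits. The cause was not tested. Leaving out 1 library at a time gave -1.39 to -1.22 for Crem after a single exposure and -1.15 to -1.07 after 3 exposures, -1.23 to -0.81 and -1.11 to -0.77 for Sik1, and -1.12 to -0.63 and -1.32 to -0.97 for Pde4b.

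For 3 exposures against a single exposure, limma gave reversed signs for Sik1 (-0.047, -0.048 and -0.047), Crtc2 (-0.25, -0.26 and -0.25) and Crtc3 (-0.0048, -0.0024 and -0.0048), and Sik1 was at -0.03 without sham library 1 and library 1 of the single exposure. Leaving out 1 library at a time moved Sik1 between -0.14 and 0.29, Crtc2 between -0.12 and 0.20, the main Pde4d row between -0.053 and 0.13, Atf1 between -0.11 and 0.067, and Creb1 between -0.29 and 0.13.

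Genes called numbered 0 in each comparison by edgeR. After a single exposure DESeq2 called 198, and limma 4 with a pseudocount of 1, 12 with 0.1 and 4 without the filter. After 3 exposures DESeq2 called 89, limma 5 with a pseudocount of 0.1, and edgeR on the 6 compared libraries 9. Between the irradiated groups DESeq2 called 5, and limma 3, 6 and 2 in the same order. Leaving out 1 library at a time gave 0 to 0 in all 3 comparisons.

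With the replicate block edgeR called 0 genes in each comparison, and Crem was at -1.30 and -1.12, Sik1 at -1.02 and -0.97 and Pde4b at -0.96 and -1.22 after the single and the 3 exposures. The libraries share only a number: 4 of 9 correlated best with their own number.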
